A study of Mus musculus with 32 samples.

Results

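The diet response of adipose tissue macrophages was compared between 2 sorted populations of wild-type (WT) mice, CD11c+ and CD206+ cells of the epididymal fat pad. All 16 WT libraries of the 32 in the series were taken by their genotype label, with no measured value used in the choice. They form 4 groups of 4 libraries: CD11c+ cells on a high-fat diet (HFD), CD11c+ cells on the standard diet (SD), CD206+ cells on HFD and CD206+ cells on SD. All mice were C57BL/6J, had been on their diet for 12 weeks, and are labelled as WT animals of a line made to delete A20 in myeloid cells. The CD11c+ cells were sorted as CD206 low and CD11c high. The labels do not state whether the mice carried a Cre or a loxP allele, how old they were, or whether a library holds 1 mouse or a pool. The 16 other libraries come from the A20myel-KO (KO) mice, spelled A20meyl KO in the sample labels, and enter a single comparison at the end. The p-values measure the spread between these libraries, which may in part be technical.

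Fat holds resident macrophages that carry the mannose receptor CD206, take up debris and iron, and stay close to vessels and adipocytes. As fat expands in obesity, macrophages that carry the integrin CD11c gather around dying adipocytes, fill with lipid and have long been linked with inflammation of the tissue. In lean fat the CD11c gate also takes in antigen-presenting cells, so the same gate need not hold the same cells on both diets. In bulk RNA, fewer cells of a type and less RNA per cell cannot be told apart.

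The RNA was sequenced in bulk, and gene counts summed to between 17619638 and 23832924 per library, with 14337 to 15656 genes detected. The genes of the sort followed the labels. Itgax, which encodes CD11c, lay between 207 and 380.5 CPM (read counts scaled to a common library size) in the 8 CD11c+ libraries and between 1.27 and 50.5 CPM in the 8 CD206+ libraries. Mrc1, which encodes CD206, lay between 412 and 706 CPM in CD11c+ libraries and between 1293 and 2175 CPM in CD206+ libraries. The macrophage genes Adgre1 (475 to 1817 CPM) and Cd68 (696 to 1951 CPM) were present in every library. A principal component analysis of all 32 libraries set the WT SD group apart: on the third component (12.0% of variance) its 8 libraries lay between -59.0 and -38.7 and the others between 0.144 and 40.4. Among the others were the KO SD libraries, on the same diet, which lay between 5.85 and 24.8. Each diet effect below is measured against the WT SD libraries, and what sets them apart was not tested.

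The populations lay closer together on HFD than on SD. Libraries with the same replicate number were treated as pairs, and for each pair the median absolute log2 difference between its CD11c+ and CD206+ library was taken over all 13047 genes tested. It was 0.256, 0.271, 0.287 and 0.280 in the HFD pairs, against 0.617, 0.523, 0.598 and 0.645 in the SD pairs, so that no HFD pair reached an SD pair. The means were 0.274 ± 0.013 on HFD and 0.596 ± 0.052 on SD (SD of 4 pairs each, exact 2-sided permutation p = 0.0286, the smallest that 4 against 4 allows). Genes more than 2-fold apart numbered 1507.5 ± 112 per HFD pair and 3963 ± 443 per SD pair.

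**Figure D1:**
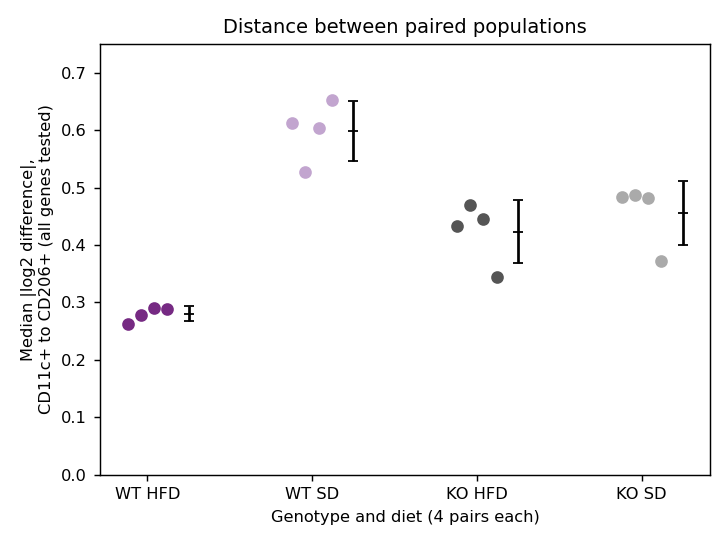
Median absolute log2 difference between the CD11c+ and the CD206+ library of a pair, over all genes tested in the fit of 32 libraries; points are pairs, bars are the mean ± SD of 4 pairs. The WT HFD pairs lie between 0.263 and 0.291 and the WT SD pairs between 0.528 and 0.653, while the KO HFD pairs (0.344 to 0.469) overlap the KO SD pairs (0.372 to 0.487).

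The diet by population interaction asks, gene by gene, whether HFD minus SD in CD11c+ cells differed from HFD minus SD in CD206+ cells. Of 13047 genes, 5778 passed (44.3%; edgeR quasi-likelihood test on paired libraries, Benjamini-Hochberg adjusted p under 0.05). For 2748 the response was higher in CD11c+ cells (21.1% of genes tested) and for 3030 it was lower (23.2%). The interaction was called and exceeded 1 on the log2 scale in either direction for 1994 genes (15.3%). The HFD and SD pairs did not overlap in their CD11c+ to CD206+ difference for 5488 of the genes tested (42.1%). Of the 5778 genes, 5282 (91.4%) had a smaller gap between the populations on HFD than on SD, against 79.9% of all genes tested.

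The diet itself changed 6290 genes in CD11c+ cells (48.2%; 2997 rose, or 23%, and 3293 fell) and 3671 in CD206+ cells (28.1%; 1878 rose and 1793 fell). Both contrasts were combined with the interaction to sort the genes. A total of 429 genes (3.29%) passed all 3 tests with opposite signs: 224 rose in CD11c+ and fell in CD206+ cells, and 205 did the reverse. A further 2963 (22.7%) passed the interaction and the contrast in CD11c+ cells but not that in CD206+ cells, and 902 (6.91%) passed the interaction and the contrast in CD206+ cells alone. A gene is called specific to a population below in this sense only. Of the CD11c+-specific genes, 1288 rose and 1675 fell, and 1133 and 1585 of these had a log2 change under 0.5 in size in CD206+ cells. Of the CD206+-specific genes, 463 rose and 439 fell, and 453 and 368 had a change under 0.5 in CD11c+ cells. Genes that moved the same way in both populations by different amounts were 390 that rose more and 289 that fell more in CD11c+ cells, and 80 that rose more and 55 that fell more in CD206+ cells. Another 670 passed the interaction without passing either diet contrast.

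**Figure D2:**
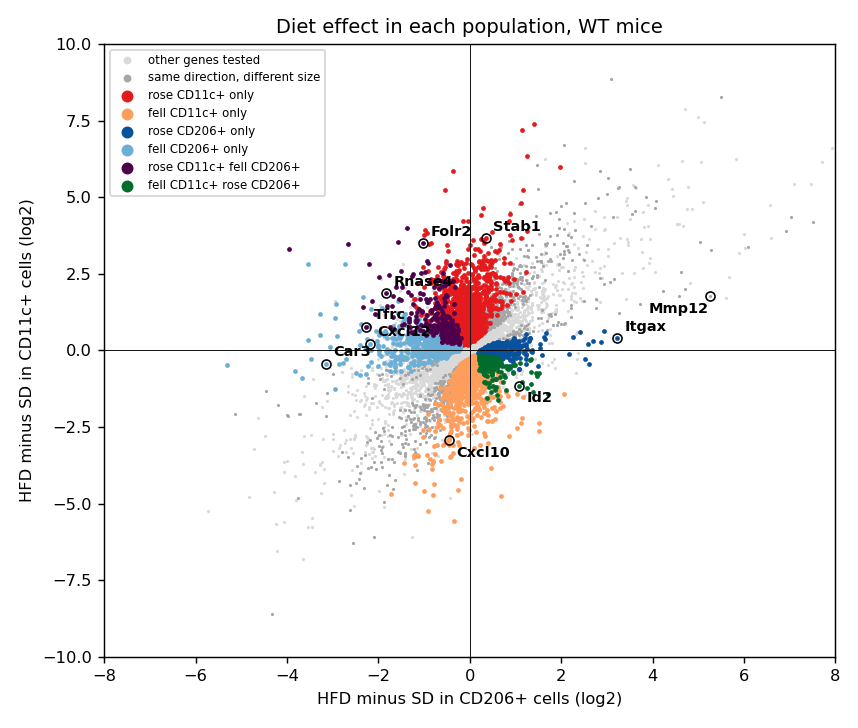
Each point is 1 of the genes tested, placed by its log2 change with HFD against SD in CD206+ cells (x axis) and in CD11c+ cells (y axis); colours give the classes defined in the text, circles mark named genes, and 2 genes lie outside the axes. Folr2 (3.5 in CD11c+, -1.02 in CD206+) sits among the genes that rose in CD11c+ and fell in CD206+ cells, and Id2 (-1.16 and 1.08) among those that did the reverse.

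The genes that rose in CD11c+ and fell in CD206+ cells included receptors and transporters of resident macrophages. Folr2, the folate receptor beta of resident macrophages, measured 403, 284, 327 and 235 CPM in CD11c+ HFD libraries, against 12.3, 41.5, 20.9 and 36.3 CPM in CD11c+ SD libraries. CD206+ HFD libraries held 523, 531, 451 and 412 CPM, against 822, 1084, 951 and 1023 CPM in CD206+ SD libraries. The diets did not overlap in either population, and the gap between the populations was far smaller on HFD than on SD. Its log2 change was 3.5 ± 0.30 in CD11c+ cells (SE, edgeR adjusted p = 1.15e-07) and -1.02 ± 0.27 in CD206+ cells (adjusted p = 0.0102), with an interaction of 4.60 ± 0.29 (adjusted p = 2.67e-06). Folr2 had the largest interaction of the class among genes that reached 10 CPM in a group and whose diets did not overlap.

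Rnase4, a secreted ribonuclease, measured 78.2, 51.8, 61.1 and 52.6 CPM in CD11c+ HFD libraries, against 11.5, 32.2, 10.6 and 12.1 CPM in CD11c+ SD libraries. The levels in CD206+ cells were 182, 185, 149.8 and 175 CPM on HFD, against 632, 789.9, 582 and 452 CPM on SD. Again the diets were apart in each population, with changes of 1.87 ± 0.30 (edgeR adjusted p = 9.65e-05) and -1.83 ± 0.29 (adjusted p = 2.28e-04) of nearly equal size. Rnase4 shares its locus with Ang, another ribonuclease gene, and the counting could split their reads. The other genes of the class named by the same rule were Dnm1 (interaction 4.05 ± 0.44), Tmod1 (3.89 ± 0.20), Adamtsl5 (3.77 ± 0.14), Slc40a1 (3.75 ± 0.30), Slc18b1 (3.51 ± 0.21) and Arhgef5 (3.26 ± 0.36). Dnm1 encodes a dynamin of endocytosis, Tmod1 a protein that caps actin filaments and Arhgef5 an exchange factor for small GTPases. Levels of Dnm1, Slc18b1 and Arhgef5 in CD11c+ SD libraries were near 1 CPM (0.385 to 1.35 CPM), so their folds rest on few reads.

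Iron genes were among those that split. Slc40a1 encodes ferroportin, the exporter that releases iron from macrophages. It measured 28.2, 35.7, 46.2 and 41.6 CPM in CD11c+ HFD libraries, against 2.90, 9.17, 4.84 and 11.4 CPM in CD11c+ SD libraries. Its values were 90.9, 108, 59.1 and 99.9 CPM in CD206+ HFD libraries, against 128, 251, 164 and 310.4 CPM in CD206+ SD libraries. The diets were apart in both populations, with changes of 2.44 ± 0.38 (edgeR adjusted p = 7.33e-05) and -1.25 ± 0.33 (adjusted p = 0.0112). With all 32 libraries in the fit the CD206+ change was -1.25 with an adjusted p of 0.0753.

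Tfrc encodes the transferrin receptor, which takes iron up. It measured 52.8, 41.2, 51.0 and 67.5 CPM in CD11c+ HFD libraries, against 23.2, 51.6, 27.4 and 21.5 CPM in CD11c+ SD libraries, which overlap. In CD206+ cells it measured 86.7, 65.1, 57.6 and 125 CPM on HFD, against 362, 407, 464 and 375 CPM on SD. The fall in CD206+ cells was clear (-2.27 ± 0.28, edgeR adjusted p = 2.17e-05). The rise in CD11c+ cells was small (0.78 ± 0.28, adjusted p = 0.0297) and missed the threshold without replicate 1 or 4 of CD11c+ HFD or replicate 1, 3 or 4 of CD11c+ SD (adjusted p 0.0508 to 0.0938). The interaction was 3.15 ± 0.26 (adjusted p = 7.82e-06).

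Of 15 tested genes of iron and haem handling, 10 had a higher and 2 a lower response in CD11c+ cells (median interaction 0.60, against 0.01 over all genes tested). In CD11c+ cells 11 rose and 2 fell, and in CD206+ cells 4 rose and 6 fell. Of all genes tested, 21.1% had a higher and 23.2% a lower response. In CD11c+ cells 23% of all genes tested rose and 25.2% fell, and in CD206+ cells 14.4% rose and 13.7% fell. The members called in opposite directions were Slc40a1, Tfrc and Blvrb, a reductase of biliverdin (interaction 2.28 ± 0.15), and Hpgd, an enzyme that degrades prostaglandins and stands in the list although it handles neither iron nor haem. The fall of Blvrb in CD206+ cells had an adjusted p of 0.0587 without replicate 2 of CD206+ SD. Hpgd averaged 153 ± 37.8 CPM in CD11c+ HFD and 35.0 ± 6.78 CPM in CD11c+ SD libraries, and 287 ± 31.2 CPM in CD206+ HFD and 419 ± 57.9 CPM in CD206+ SD libraries (SD, n = 4 each). Its fall in CD206+ cells (-0.55 ± 0.17, edgeR adjusted p = 0.0219) missed the threshold with all 32 libraries in the fit (adjusted p = 0.253) and without replicate 3 or 4 of CD206+ HFD or replicate 1 or 3 of CD206+ SD (0.0541 to 0.0608). Cp, which encodes the ferroxidase ceruloplasmin, Hmox1 and Ftl1 rose in CD11c+ cells only (2.40, 0.46 and 0.83). In CD206+ cells Cp had a change of -0.57 ± 0.23 (edgeR adjusted p = 0.0751), which passed in voom (0.00476) and without replicate 2 of CD11c+ SD (0.0306).

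Of 35 genes of resident and alternatively activated macrophages, 22 had a higher and 5 a lower response in CD11c+ cells (21.1% and 23.2% of all genes tested). Their median interaction was 1.64. The lower count was 3 without either library of SD pair 1, and 2 without the replicate block, in voom and with all 32 libraries. Within CD11c+ cells 15 rose and 12 fell, whereas in CD206+ cells 2 rose and 22 fell (13.7% of all genes tested fell there). The 6 members called in opposite directions were Mrc1, Folr2, Gas6, Pf4, Ednrb and Colec12. Mrc1 itself averaged 635 ± 49.6 CPM in CD11c+ HFD and 466 ± 36.0 CPM in CD11c+ SD libraries, and 1468 ± 136 CPM in CD206+ HFD and 1911 ± 265 CPM in CD206+ SD libraries. Its changes were small (0.45 ± 0.10 and -0.38 ± 0.10, edgeR adjusted p = 0.00178 and 0.0109), and without replicate 4 of CD206+ SD the fall had an adjusted p of 0.0535. Gas6, a ligand of the receptors that clear dying cells, rose by 2.31 in CD11c+ cells and fell by 0.67 in CD206+ cells. The falls of Gas6, Ednrb and Colec12 in CD206+ cells were marginal (edgeR adjusted p = 0.0411, 0.0436 and 0.0446, and 0.0642, 0.0815 and 0.237 with all 32 libraries in the fit). That of Gas6 missed the threshold without any CD206+ HFD replicate, replicate 4 of CD11c+ SD or replicate 2, 3 or 4 of CD206+ SD (0.054 to 0.119). That of Ednrb did so without replicate 2 or 3 of CD11c+ HFD, 1, 2 or 3 of CD206+ HFD, 4 of CD11c+ SD or 2, 3 or 4 of CD206+ SD (0.0511 to 0.15), and its rise in CD11c+ cells without replicate 4 of CD11c+ HFD (0.0675). That of Colec12 did so without any library other than replicate 2 of CD206+ HFD and replicates 1 and 2 of CD206+ SD (0.0537 to 0.201). Pf4, a chemokine of platelets and resident macrophages, changed by 1.47 ± 0.17 and -0.70 ± 0.17 (edgeR adjusted p = 1.46e-06 and 0.00437). The 7 platelet genes, Pf4 among them, summed to 174.2 to 340.3 CPM in CD11c+ HFD, 79.5 to 121.7 CPM in CD11c+ SD, 510.0 to 729.5 CPM in CD206+ HFD and 940.8 to 1021 CPM in CD206+ SD libraries, with 1 higher and 0 lower of 3 tested. Their part in the result was not tested.

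Other members moved differently. Lyve1, Fcna and Clec10a, markers of resident cells near vessels, fell in CD206+ cells only (-1.32, -1.09 and -0.70), but their class was not firm. The interaction of Lyve1 (1.65, edgeR adjusted p = 0.031) missed the threshold without either library of HFD pair 2 or 4 or SD pair 1, 3 or 4 (0.0611 to 0.0867). The fall of Fcna missed it without replicate 1 or 4 of CD206+ HFD or replicate 4 of CD206+ SD (0.0655 to 0.0986). Without replicate 4 of CD11c+ SD, Fcna and Clec10a passed as higher in CD11c+ cells (0.0435 and 0.00995), as did Fcna without replicate 1 or 3 of CD206+ HFD and Clec10a without replicate 1 of CD11c+ HFD (0.0317 to 0.042). Cd163, the haemoglobin scavenger receptor, fell in both populations, by 1.08 in CD11c+ and by 2.24 in CD206+ cells. The transglutaminase F13a1 fell in both, more in CD11c+ cells (-2.0, against -1.28 in CD206+ cells). Vsig4, a complement receptor, rose in both, by 5.28 ± 0.61 in CD11c+ cells, where SD libraries held 0 to 1.18 CPM, and by 1.5 ± 0.40 in CD206+ cells, where its adjusted p was 0.0514 without replicate 3 of CD206+ HFD. Cyp27a1, an enzyme of oxysterol synthesis from the cholesterol list, also split (1.47 ± 0.18 and -0.69 ± 0.17, edgeR adjusted p = 2.22e-06 and 0.00497).

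The reverse pattern, a fall in CD11c+ and a rise in CD206+ cells, included transcription factors and genes of inflammatory signalling. Id2, an inhibitor of DNA binding that dendritic cells need, measured 136, 118, 110.1 and 97.9 CPM in CD11c+ HFD libraries, against 301, 254, 266 and 209.5 CPM in CD11c+ SD libraries. CD206+ HFD libraries held 129, 96.8, 91.5 and 94.7 CPM, against 57.2, 51.9, 45.1 and 41.2 CPM in CD206+ SD libraries. On HFD the populations overlapped, and on SD every CD11c+ library lay above every CD206+ one. The changes were -1.16 ± 0.14 (edgeR adjusted p = 1.96e-06) and 1.08 ± 0.14 (adjusted p = 1.86e-05), with an interaction of -2.23 ± 0.10 (adjusted p = 2.38e-09).

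Il1rn encodes the secreted antagonist of the interleukin-1 receptor. It measured 139, 139.6, 134 and 162 CPM in CD11c+ HFD libraries, against 341, 293, 310.2 and 242 CPM in CD11c+ SD libraries. The levels in CD206+ cells were 161, 103, 96.1 and 134 CPM on HFD, against 84.7, 55.1, 44.0 and 40.1 CPM on SD. As for Id2, the diets were apart in each population and the populations overlapped on HFD (changes -1.04 ± 0.20 and 1.14 ± 0.21, edgeR adjusted p = 4.42e-04 and 5.93e-04).

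Dusp5, a phosphatase that acts on ERK, measured 162, 114, 118 and 117 CPM in CD11c+ HFD libraries, against 195, 215, 208 and 204 CPM in CD11c+ SD libraries. Its values were 95.6, 57.1, 64.9 and 72.7 CPM in CD206+ HFD libraries, against 33.0, 27.8, 29.7 and 23.7 CPM in CD206+ SD libraries. The rise in CD206+ cells (1.34 ± 0.15, edgeR adjusted p = 3.25e-06) was larger than the fall in CD11c+ cells (-0.69 ± 0.14, adjusted p = 6.11e-04).

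Dcstamp, a membrane protein of macrophage fusion, had the largest interaction of this class by the same rule (-2.46 ± 0.20, edgeR adjusted p = 3.93e-07). It averaged 77.3 ± 7.0 CPM in CD11c+ HFD and 182 ± 22.8 CPM in CD11c+ SD libraries, but only 5.62 ± 2.12 CPM in CD206+ HFD and 2.34 ± 0.218 CPM in CD206+ SD libraries, so its rise there was at a low level. The others were Sh2d1b1 (-2.25 ± 0.16), Agpat4 (-1.84 ± 0.11), Stx11 (-1.77 ± 0.13) and Tnip3 (-1.73 ± 0.16). Sh2d1b1 encodes an adaptor of SLAM receptors, Agpat4 an acyltransferase of phospholipid synthesis, Stx11 a syntaxin of vesicle fusion and Tnip3 a partner of A20. The rise of Sh2d1b1 in CD206+ cells had an adjusted p of 0.0718 with all 32 libraries in the fit. The fall of Tnip3 in CD11c+ cells (-0.73 ± 0.25, edgeR adjusted p = 0.0279) missed the threshold without the filter on low counts (0.0595) and without replicate 3 or 4 of CD11c+ HFD or replicate 1, 2 or 3 of CD11c+ SD (0.0562 to 0.0884).

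**Figure D3:**
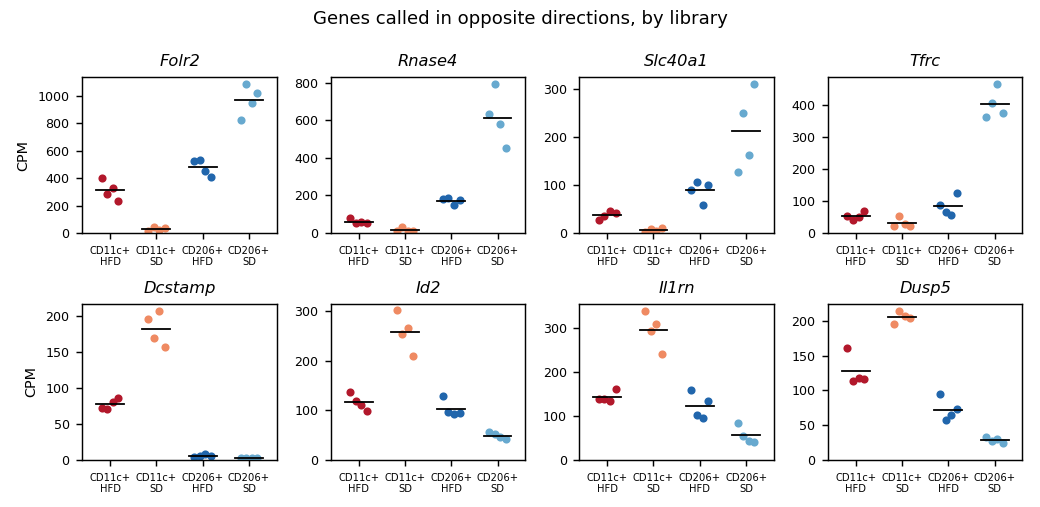
CPM per library (points) and group mean (lines) of 8 genes that passed all 3 tests with opposite signs, each panel from 0. In the upper row CD11c+ HFD averages exceed CD11c+ SD averages while CD206+ HFD averages lie below CD206+ SD averages (Folr2 averaged 313, 27.8, 479.6 and 970.1 CPM in the order of the axis), and in the lower row both differences are turned round.

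Of 39 tested NF-kB targets and inflammatory cytokines, 3 had a higher and 29 a lower response in CD11c+ cells (21.1% and 23.2% of all genes tested). Their median interaction was -0.84. In CD11c+ cells 2 rose and 26 fell (23% and 25.2% of all genes tested). In CD206+ cells 14 rose and 4 fell (14.4% and 13.7% of all genes tested rose and fell there). All 9 members called in opposite directions fell in CD11c+ cells: Rel, Bcl3, Tnip3, Il1rn, Osm, Sod2, Plaur, Ccrl2 and Clec4e. Rel, an NF-kB subunit, changed by -0.46 in CD11c+ and 0.49 in CD206+ cells, and Plaur, the urokinase receptor, by -1.45 and 0.59. With all 32 libraries in the fit the rises of Osm, Sod2, Plaur, Ccrl2 and Clec4e in CD206+ cells missed the threshold (adjusted p = 0.128, 0.0602, 0.127, 0.192 and 0.0727). The rise of Osm also missed it without replicate 1 or 3 of CD206+ HFD or 2, 3 or 4 of CD206+ SD, that of Ccrl2 without the same libraries, and that of Clec4e without replicate 3 or 4 of CD206+ HFD or 3 or 4 of CD206+ SD (0.0518 to 0.132). The falls of Osm and Sod2 in CD11c+ cells missed it as well, that of Osm without replicate 2 of CD11c+ SD (0.0509) and that of Sod2 (-0.23) without replicate 2, 3 or 4 of CD11c+ HFD or 1 or 3 of CD11c+ SD (0.0517 to 0.095). A further 13 fell in CD11c+ cells only, and the NF-kB subunits Nfkb1 and Relb and the inflammasome sensor Nlrp3 rose in CD206+ cells only (0.60, 0.30 and 0.60). The rise of Nlrp3 missed the threshold without replicate 1 of CD206+ HFD (0.0556), and its interaction without the replicate block (0.0906); with all 32 libraries in the fit the rises of Nlrp3 and Relb had adjusted p values of 0.0927 and 0.0526. That of Relb missed it without replicate 1 or 3 of CD206+ HFD or 2, 3 or 4 of CD206+ SD (0.0536 to 0.073), and Nfkb1 also passed in CD11c+ cells without replicate 4 of CD11c+ SD (0.28, adjusted p = 0.0403).

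Tnfaip3, the gene of A20, belongs to the genes that fell in CD11c+ cells only. It measured 807, 642, 617 and 716 CPM in CD11c+ HFD libraries, against 1409.5, 1475, 1694 and 1436 CPM in CD11c+ SD libraries. In CD206+ cells it measured 902, 693, 714 and 817 CPM on HFD, against 664, 674, 747 and 492 CPM on SD, which overlap. Its change was -1.11 ± 0.13 in CD11c+ cells (edgeR adjusted p = 1.06e-06) and 0.28 ± 0.13 in CD206+ cells (adjusted p = 0.106; 95% interval 0.01 to 0.54).

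The cytokine genes differed in how far the populations parted. Il1b averaged 326 ± 95.2 CPM in CD11c+ HFD and 1346 ± 248 CPM in CD11c+ SD libraries, and 281 ± 136 CPM in CD206+ HFD and 219.8 ± 93.0 CPM in CD206+ SD libraries (changes -2.04 ± 0.35 and 0.36 ± 0.33, edgeR adjusted p = 1.61e-04 and 0.46). Il6 fell in both populations, to 9.18 ± 2.02 CPM in CD11c+ HFD against 338 ± 85.8 CPM in CD11c+ SD libraries, and to 7.04 ± 3.67 CPM in CD206+ HFD against 43.0 ± 7.54 CPM in CD206+ SD libraries. The anti-inflammatory cytokine Il10 rose in both (1.71 in CD11c+ and 1.05 in CD206+ cells). The summed level of 28 immediate early and stress genes, which respond to handling of cells as well as to signals, was lower on HFD in both populations. In CD11c+ cells it lay between 10883.4 and 12759.0 CPM on HFD and between 23214.3 and 28822.0 CPM on SD. In CD206+ cells it lay between 17603.9 and 20592.4 CPM on HFD and between 32061.7 and 39724.0 CPM on SD. Of the 28, 22 fell in CD11c+ and 17 in CD206+ cells (25.2% and 13.7% of all genes tested). The list also differed between the populations. In the interaction 8 were higher and 15 lower in CD11c+ cells (21.1% and 23.2% of all genes tested), and 8 fell in CD11c+ cells only. The higher count was 6 to 7 with 1 library left out. The part of these genes in the result was not tested.

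The promoters of Dusp5, Il1rn, Tnfaip3 and Cxcl10 are shown as genes whose values are given by library and whose 300-base RefSeq windows (250 bases before to 50 after a start, build GRCm38.p6) hold a kB site or an interferon-stimulated response element (ISRE). Of 99 genes looked up that have a window, 8 hold either, and the others are Il6 and Rel (a kB site) and Fosl2 and Spp1 (an ISRE). Both strands were searched for the kB site of NF-kB, the ISRE, the E-box (CACGTG) and the Y box (CCAAT), and no matches in these windows overlap. The kB site was searched in a single narrow form: a run of G, free bases, a run of T and a run of C. Sequences with A or C in place of the first T did not count. The Cxcl10 window holds both of these, left in lower case. The ISRE was likewise searched in a single form, and all counts given here rest on these forms. Capitals mark matches to the forms searched: a kB site in the first 3, with an E-box in Tnfaip3, and an ISRE and a Y box in Cxcl10. The windows are chr19:53528895-53529194 (plus strand), chr2:24345121-24345420 (plus strand, a downstream start of Il1rn), chr10:19015361-19015660 (minus strand) and chr5:92348840-92349139 (minus strand).
Dusp5: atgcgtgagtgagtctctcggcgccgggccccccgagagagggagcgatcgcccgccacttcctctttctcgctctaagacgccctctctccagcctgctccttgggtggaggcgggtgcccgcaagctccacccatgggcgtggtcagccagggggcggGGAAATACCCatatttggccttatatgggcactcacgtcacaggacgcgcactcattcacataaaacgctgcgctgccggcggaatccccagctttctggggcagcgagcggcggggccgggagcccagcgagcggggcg
Il1rn: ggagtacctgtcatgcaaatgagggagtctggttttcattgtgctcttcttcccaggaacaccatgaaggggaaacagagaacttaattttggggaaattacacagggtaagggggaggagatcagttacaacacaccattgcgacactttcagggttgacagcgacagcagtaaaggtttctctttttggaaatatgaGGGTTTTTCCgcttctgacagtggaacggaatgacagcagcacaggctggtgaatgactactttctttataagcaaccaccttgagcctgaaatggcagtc
Tnfaip3: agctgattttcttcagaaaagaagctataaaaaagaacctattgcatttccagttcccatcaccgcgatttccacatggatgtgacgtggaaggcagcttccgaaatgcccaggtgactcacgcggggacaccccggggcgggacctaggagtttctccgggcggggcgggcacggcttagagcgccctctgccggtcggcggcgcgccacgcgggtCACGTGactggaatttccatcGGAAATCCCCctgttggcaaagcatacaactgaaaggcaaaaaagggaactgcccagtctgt
Cxcl10: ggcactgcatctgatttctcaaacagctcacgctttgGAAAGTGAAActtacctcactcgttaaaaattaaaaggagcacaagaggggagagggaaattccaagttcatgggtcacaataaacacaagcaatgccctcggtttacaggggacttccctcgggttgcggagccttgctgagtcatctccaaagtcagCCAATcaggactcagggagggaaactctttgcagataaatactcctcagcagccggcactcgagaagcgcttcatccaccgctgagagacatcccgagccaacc
A kB site was in the windows of 5 of 174 genes that fell in CD11c+ and rose in CD206+ cells (2.87%), of 5 of 176 that did the reverse (2.84%) and of 212 of 10445 genes tested that have a window (2.03%). Over the opposite and single-population classes the kB site was in 1.14% (fell in CD206+ cells only) to 2.87% of windows. The ISRE was in 1.15% (fell in CD11c+ and rose in CD206+ cells, 2 of 174) to 5.4% (fell in CD206+ cells only), against 3.94% of all. The E-box was in 11.1% to 14.4%, against 11.7% of all, and the Y box in 40.8% (rose in CD11c+ cells only) to 52.0% (fell in CD206+ cells only, 183 of 352), against 42.7% of all. These shares were not tested, and those of the kB site and the ISRE count only the forms searched. The letters describe these windows and are not shown to be bound.

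The genes that rose in CD11c+ cells only included scavenger receptors and enzymes already abundant in CD206+ cells. Stab1, a scavenger receptor of resident macrophages, measured 493, 358, 496 and 466 CPM in CD11c+ HFD libraries, against 16.4, 45.2, 22.9 and 58.5 CPM in CD11c+ SD libraries. CD206+ HFD libraries held 994, 885, 973 and 1139.9 CPM, against 599, 772, 739 and 1006 CPM in CD206+ SD libraries. The diets were far apart in CD11c+ cells (3.67 ± 0.32, edgeR adjusted p = 1.59e-07) and overlapped in CD206+ cells (0.36 ± 0.28, adjusted p = 0.378; 95% interval -0.25 to 0.96).

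Msr1, the scavenger receptor A that takes up modified lipoproteins, measured 228, 178, 221 and 212 CPM in CD11c+ HFD libraries, against 22.4, 38.0, 32.7 and 30.5 CPM in CD11c+ SD libraries. The levels in CD206+ cells were 204, 194, 242 and 222 CPM on HFD, against 173, 171, 187 and 200.2 CPM on SD. On HFD the populations overlapped, and on SD every CD11c+ library lay below every CD206+ one. The changes were 2.76 ± 0.14 (edgeR adjusted p = 7.35e-11) and 0.24 ± 0.12 (adjusted p = 0.166).

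The rule also named Layn (interaction 4.30 ± 0.31), Rasgrp3 (4.17 ± 0.18), Prune2 (3.39 ± 0.17), Npl (3.19 ± 0.19) and Maoa (3.14 ± 0.22). Layn encodes a hyaluronan receptor, Rasgrp3 an activator of Ras, Npl a lyase of sialic acid and Maoa the monoamine oxidase A. Npl measured 60.3, 38.6, 46.5 and 35.0 CPM in CD11c+ HFD libraries, against 3.09, 6.18, 3.85 and 5.18 CPM in CD11c+ SD libraries, and stayed between 69.7 and 94.8 CPM in the 8 CD206+ libraries. The change of Npl in CD206+ cells was 0.12 ± 0.17 (edgeR adjusted p = 0.635; 95% interval -0.24 to 0.48).

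Cholesterol and lysosome genes belong here in part. Of 14 genes of cholesterol efflux, 6 had a higher and 2 a lower response in CD11c+ cells, against 21.1% and 23.2% of all genes tested. In CD11c+ cells 8 rose and 0 fell (23% and 25.2% of all genes tested). Apoe, the apolipoprotein that accepts cholesterol, averaged 10218 ± 1344 CPM in CD11c+ HFD and 1456 ± 441 CPM in CD11c+ SD libraries, and 14086 ± 1735 CPM in CD206+ HFD and 10148 ± 1770.5 CPM in CD206+ SD libraries. Its rise of 2.81 ± 0.20 in CD11c+ cells (edgeR adjusted p = 4.08e-09) stood beside 0.47 ± 0.19 in CD206+ cells (adjusted p = 0.0663). The CD206+ value passed in DESeq2 (0.0375) and without replicate 1, 2 or 4 of CD11c+ SD (0.0324 to 0.0491), so Apoe lies at the margin of the CD11c+-specific genes. Abca1, the efflux pump, changed by 2.31 ± 0.21 in CD11c+ and 0.35 ± 0.20 in CD206+ cells, and Mertk, a receptor for dying cells, by 1.75 ± 0.24 and 0.19 ± 0.23 (edgeR adjusted p = 0.21 and 0.567 in CD206+ cells).

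Of 44 lysosome genes, 24 had a higher and 5 a lower response in CD11c+ cells (median 0.35), and the lower count was 3 without either library of HFD pair 1, 2 or 3 or SD pair 3, without the replicate block and with all 32 libraries. In CD11c+ cells 33 rose and 2 fell, in CD206+ cells 24 rose and 2 fell, and 11 rose in CD11c+ cells only. Of all genes tested, 21.1% had a higher and 23.2% a lower response, and 23% rose in CD11c+ and 14.4% in CD206+ cells. The cathepsins Ctsl and Ctsb rose in both populations, by 3.04 ± 0.19 and 1.99 in CD11c+ and by 1.27 ± 0.18 and 0.50 in CD206+ cells. The tetraspanin Cd63 rose by 2.84 ± 0.14 and 0.83 ± 0.13 (edgeR adjusted p = 6.05e-11 and 1.01e-04), with an interaction of 2.04 ± 0.13.

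The genes that fell in CD11c+ cells only and were named by the rule were Stk32c (interaction -4.08 ± 0.99), Runx3, F3, Irgc1 (-2.91 ± 0.46), Klra2 and Padi4 (-2.72 ± 0.52). Stk32c encodes a kinase and averaged 0.562 ± 0.354 CPM in CD11c+ HFD and 10.5 ± 2.98 CPM in CD11c+ SD libraries. Padi4 encodes an enzyme that citrullinates proteins, and in voom its interaction and its fall had adjusted p values of 0.0507 and 0.103. Runx3, a transcription factor of lymphocytes and dendritic cells, measured 2.17, 4.45, 3.53 and 4.22 CPM in CD11c+ HFD libraries, against 37.9, 29.9, 26.7 and 29.5 CPM in CD11c+ SD libraries. In CD206+ cells it lay between 2.08 and 6.41 CPM on HFD and between 2.21 and 4.70 CPM on SD. Its level in CD11c+ HFD libraries thus fell into the range of CD206+ cells (changes -3.10 ± 0.32 and 0.22 ± 0.32, edgeR adjusted p = 3.83e-07 and 0.651).

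F3, the tissue factor that starts coagulation, measured 10.2, 10.2, 7.94 and 9.55 CPM in CD11c+ HFD libraries, against 58.8, 53.9, 71.5 and 59.9 CPM in CD11c+ SD libraries, and 2.99 to 10.6 CPM in the CD206+ libraries. Klra2, a lectin-like receptor, averaged 3.14 ± 1.22 CPM in CD11c+ HFD and 26.9 ± 6.52 CPM in CD11c+ SD libraries, with no call in CD206+ cells (-0.37 ± 0.37, edgeR adjusted p = 0.492), and its reads could be split with near-identical members of the Klra family. Cxcl10, the interferon-induced chemokine, measured 14.5, 13.7, 19.7 and 8.19 CPM in CD11c+ HFD libraries, against 96.5, 88.8, 99.5 and 145 CPM in CD11c+ SD libraries. Its values were 40.9, 21.9, 36.9 and 22.8 CPM in CD206+ HFD libraries, against 34.9, 31.2, 42.6 and 60.8 CPM in CD206+ SD libraries. The order of the populations thus turned over, with CD11c+ cells the lower on HFD and the higher on SD (interaction -2.49 ± 0.16, adjusted p = 5.33e-08).

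Some markers of other leukocytes moved with these genes. The summed level of 9 NK cell genes was 6.78 to 11.0 CPM in CD11c+ HFD libraries and 87.6 to 116.9 CPM in CD11c+ SD libraries, against 3.53 to 7.29 CPM in CD206+ HFD and 6.99 to 9.36 CPM in CD206+ SD. Nearly all of it was Klrk1, which averaged 7.19 CPM in CD11c+ HFD and 100.5 CPM in CD11c+ SD libraries and fell in both populations. Of 4 tested members Klrk1 alone passed in CD11c+ cells, Nkg7 averaged 1.01 CPM there on HFD and 1.62 CPM on SD, and Klra8 was at 0 in CD11c+ SD and in CD206+ HFD libraries. The 14 T cell genes summed to 93.8 to 115.8 CPM in CD11c+ HFD, 35.2 to 52.5 CPM in CD11c+ SD, 43.9 to 51.0 CPM in CD206+ HFD and 20.1 to 36.8 CPM in CD206+ SD libraries, most of it Il7r in CD11c+ cells (97.5 and 25.2 CPM on HFD and SD). Of 13 tested T cell genes, however, 2 rose and 6 fell in CD11c+ cells (median -0.92). In the interaction 1 had a higher and 6 a lower response there (3 lower without either library of HFD pair 1 or SD pair 4). Of all genes tested, 23% rose and 25.2% fell in CD11c+ cells, and 21.1% had a higher and 23.2% a lower response. Cd3e, a chain of the T cell receptor complex, averaged 0.638 CPM in CD11c+ HFD and 2.37 CPM in CD11c+ SD libraries. The 18 dendritic cell genes summed to 238.6 to 326.1 CPM in CD11c+ HFD, 654.7 to 980.5 CPM in CD11c+ SD, 283.0 to 294.0 CPM in CD206+ HFD and 666.4 to 693.2 CPM in CD206+ SD libraries. Of 16 monocyte genes, 1 had a higher and 10 a lower response in CD11c+ cells, against 21.1% and 23.2% of all genes tested. They summed to 2568.7 to 3525.6 CPM in CD11c+ HFD, 13928.8 to 23436.1 CPM in CD11c+ SD, 4103.0 to 4566.8 CPM in CD206+ HFD and 7749.7 to 10156.6 CPM in CD206+ SD. Most of the sum in CD11c+ SD libraries was Fn1, which averaged 11697.7 CPM there and 1395.7 CPM in CD11c+ HFD libraries. Fn1 fell in both populations. Ptprc, the pan-leukocyte CD45, and Lyz2, the lysozyme of myeloid cells, fell in CD11c+ cells only (-0.93 ± 0.13 and -1.02 ± 0.12). The part of these cells in the results was not tested.

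Genes of oxidative phosphorylation fell mainly in CD11c+ cells, by small amounts. The fatty acid oxidation list was mixed: of 22 tested, 8 rose and 5 fell in CD11c+ cells, and 5 rose and 2 fell in CD206+ cells. Of all genes tested, 23% rose and 25.2% fell in CD11c+ cells, and 14.4% rose and 13.7% fell in CD206+ cells. In the interaction 6 of the 22 were higher and 5 lower, near the 21.1% and 23.2% of all genes tested. Of 62 genes of oxidative phosphorylation, 0 had a higher and 54 a lower response in CD11c+ cells (21.1% and 23.2% of all genes tested). Their median interaction was -0.53. In CD11c+ cells 51 fell and 1 rose, in CD206+ cells 4 rose and 0 fell (at an adjusted p under 0.05 by edgeR), and 48 fell in CD11c+ cells only. By comparison 25.2% of all genes tested fell in CD11c+ cells. Uqcrfs1, the Rieske subunit of complex III, measured 94.2, 94.7, 90.2 and 94.7 CPM in CD11c+ HFD libraries, against 181, 178, 164 and 175 CPM in CD11c+ SD libraries. In CD206+ cells it measured 73.9, 73.5, 71.1 and 73.6 CPM on HFD, against 73.3, 68.5, 59.8 and 60.5 CPM on SD. The diets were apart in CD11c+ cells and overlapped in CD206+ cells (changes -0.90 ± 0.07 and 0.16 ± 0.07, edgeR adjusted p = 1.60e-08 and 0.112). The CD206+ value passed without replicate 4 of CD11c+ SD (0.0489) or replicate 1 of CD206+ SD (0.0368). Ndufa6, of complex I, changed by -1.40 ± 0.13 and -0.09 ± 0.13 (adjusted p = 1.05e-07 and 0.66).

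Of 27 glycolysis and hypoxia genes, 4 had a higher and 18 a lower response in CD11c+ cells, against 21.1% and 23.2% of all genes tested. Among them 9 fell in CD11c+ cells only and 6 rose in CD206+ cells only. Slc16a3, the lactate exporter, averaged 45.3 ± 13.7 CPM in CD11c+ HFD and 179 ± 48.5 CPM in CD11c+ SD libraries, and 27.2 ± 7.59 CPM in CD206+ HFD and 26.0 ± 7.75 CPM in CD206+ SD libraries. Of 27 genes of sterol and fatty acid synthesis, 1 had a higher and 13 a lower response (21.1% and 23.2% of all genes tested). The AP-1 gene Fosl2 and the nuclear receptor Nr4a3 fell in CD11c+ cells only (-1.63 ± 0.09 and -2.57 ± 0.24, against 0.02 ± 0.09 and -0.28 ± 0.24 in CD206+ cells).

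**Figure D4:**
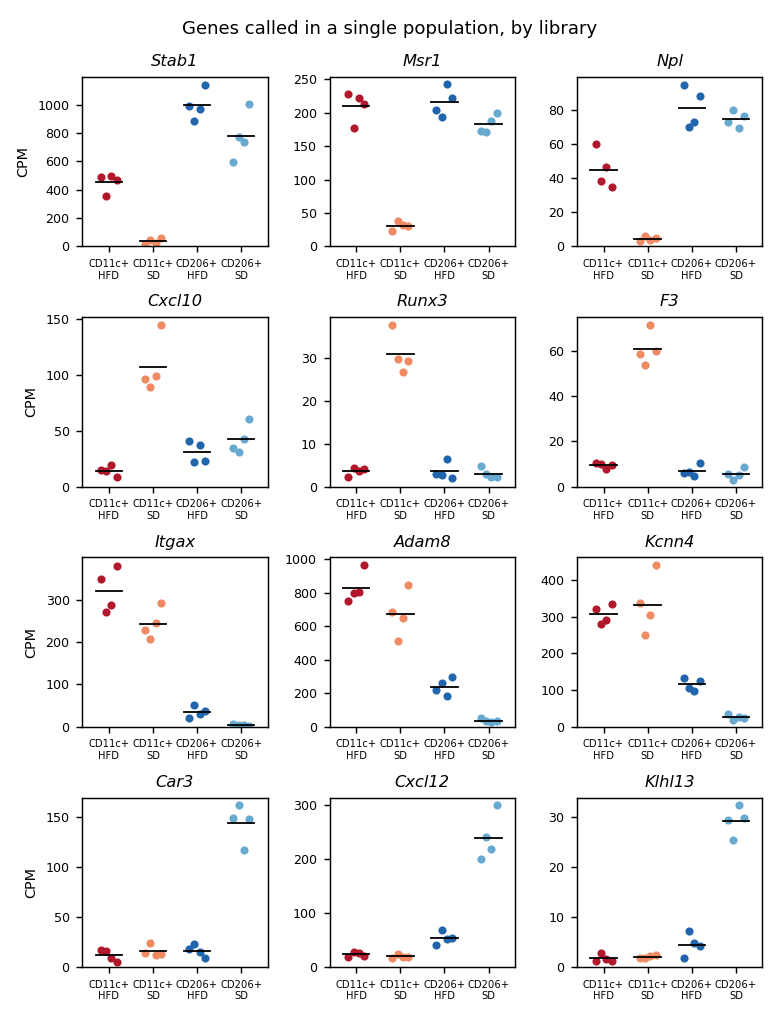
CPM per library (points) and group mean (lines) of 12 genes that passed the interaction and 1 diet contrast, each panel from 0. From top to bottom the rows show genes that rose in CD11c+ cells only, fell in CD11c+ cells only, rose in CD206+ cells only and fell in CD206+ cells only (Msr1, Runx3, Kcnn4 and Klhl13 averaged 209.8, 3.59, 306 and 1.69 CPM in CD11c+ HFD libraries).

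Among the genes that rose in CD206+ cells only, Itgax had the largest interaction by the naming rule (-2.78 ± 0.52, edgeR adjusted p = 0.00364). Itgax measured 349, 269.8, 286 and 380.5 CPM in CD11c+ HFD libraries, against 228, 207, 245 and 293 CPM in CD11c+ SD libraries. CD206+ HFD libraries held 20.9, 50.5, 29.5 and 37.6 CPM, against 6.10, 3.32, 3.95 and 1.27 CPM in CD206+ SD libraries. The CD206+ HFD level (34.6 ± 12.6 CPM) stayed below every CD11c+ library, and the rise was 3.22 ± 0.33 (edgeR adjusted p = 4.69e-06), against 0.40 ± 0.27 in CD11c+ cells (adjusted p = 0.245). Itgax encodes the antigen of the sort, so that CD11c+ cells among the sorted CD206+ cells would raise it. That part was not tested.

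Adam8, a membrane protease of leukocytes, measured 752, 801, 804 and 964 CPM in CD11c+ HFD libraries, against 688, 511, 647 and 844 CPM in CD11c+ SD libraries. The levels in CD206+ cells were 222, 258, 181 and 297 CPM on HFD, against 54.5, 31.9, 28.9 and 32.9 CPM on SD. The pattern was that of Itgax, with overlap in CD11c+ cells (0.30 ± 0.19, edgeR adjusted p = 0.209) and none in CD206+ cells (2.69 ± 0.21, adjusted p = 1.04e-07). Kcnn4, a calcium-activated potassium channel, changed by -0.12 ± 0.18 in CD11c+ cells (95% interval -0.49 to 0.25) and by 2.18 ± 0.19 in CD206+ cells (adjusted p = 0.615 and 3.56e-07). Gyk, the glycerol kinase, averaged 15.5 ± 4.21 CPM in CD206+ HFD and 5.35 ± 1.43 CPM in CD206+ SD libraries (1.53 ± 0.21, adjusted p = 2.59e-05).

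Cell cycle genes rose mainly in CD206+ cells. Of 44 tested, 1 had a higher and 25 a lower response in CD11c+ cells (median -0.64), against 21.1% and 23.2% of all genes tested. In CD206+ cells 28 rose and 1 fell, in CD11c+ cells 5 rose and 2 fell, and 18 rose in CD206+ cells only. Of all genes tested, 14.4% rose and 13.7% fell in CD206+ cells, and 23% rose and 25.2% fell in CD11c+ cells. Rrm2, a subunit of ribonucleotide reductase, measured 55.9, 39.6, 39.5 and 46.4 CPM in CD11c+ HFD libraries, against 49.9, 56.7, 71.3 and 40.6 CPM in CD11c+ SD libraries. Its values were 39.7, 26.4, 21.1 and 21.8 CPM in CD206+ HFD libraries, against 7.63, 13.6, 16.1 and 9.23 CPM in CD206+ SD libraries. HFD thus brought CD206+ cells nearer to the level that CD11c+ cells had on both diets (1.23 ± 0.25, edgeR adjusted p = 0.00159). The 18 included the helicase subunits Mcm5 and Mcm7 and the cyclins Ccna2 and Ccnb2, named here because they kept their calls under every alternative run. They also included the topoisomerase Top2a (0.78), which missed the threshold without replicate 1 of CD206+ HFD (0.0704) or 3 of CD206+ SD (0.0502). Mki67 did not pass (0.60 in CD206+ cells, edgeR adjusted p = 0.0889) but did in DESeq2 (0.0449) and without replicate 3 or 4 of CD11c+ SD or 2 of CD206+ SD (0.0106 to 0.0474). Nfe2l2, the regulator of antioxidant genes NRF2, also rose in CD206+ cells only (0.83 ± 0.13 against -0.05 ± 0.13 in CD11c+ cells).

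The genes that fell in CD206+ cells only included secreted factors and genes that adipocytes also express. Car3, a carbonic anhydrase abundant in adipocytes, measured 17.4, 16.1, 8.76 and 5.24 CPM in CD11c+ HFD libraries, against 14.3, 23.7, 12.4 and 13.3 CPM in CD11c+ SD libraries. In CD206+ cells it measured 18.1, 23.3, 14.8 and 8.88 CPM on HFD, against 149, 162, 117 and 148 CPM on SD. Only the CD206+ SD libraries stood high (CD206+ change -3.14 ± 0.35, edgeR adjusted p = 1.03e-05, against -0.43 ± 0.35 in CD11c+ cells, adjusted p = 0.335).

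Cxcl12, the chemokine that retains leukocytes in tissue, measured 18.2, 26.7, 26.4 and 20.6 CPM in CD11c+ HFD libraries, against 16.9, 24.6, 18.7 and 18.6 CPM in CD11c+ SD libraries. CD206+ HFD libraries held 39.9, 67.6, 51.0 and 53.0 CPM, against 199, 241, 217 and 299 CPM in CD206+ SD libraries. Its fall in CD206+ cells (-2.17 ± 0.17, edgeR adjusted p = 1.18e-07) left it above the CD11c+ libraries. Klhl13, an adaptor of ubiquitin ligases, and Fndc4, a secreted fibronectin-domain protein, fell by 2.72 and 2.87 in CD206+ cells, where they averaged 4.44 ± 2.22 and 3.17 ± 0.691 CPM on HFD against 29.2 ± 2.86 and 23.3 ± 2.93 CPM on SD. Siglech, a lectin of plasmacytoid dendritic cells, averaged 2.98 ± 0.561 CPM in CD206+ HFD and 29.1 ± 7.36 CPM in CD206+ SD libraries, and was at most 0.648 CPM in the CD11c+ libraries. The dendritic cell sums given above were lower on HFD in both populations. Of 18 tested members 3 had a higher and 6 a lower response in CD11c+ cells, against 21.1% and 23.2% of all genes tested.

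Adipocyte markers moved with this class. Of 15 tested, 11 had a higher and 0 a lower response in CD11c+ cells (21.1% and 23.2% of all genes tested). In CD206+ cells 12 fell (13.7% of all genes tested). Of these 6 were CD206+-specific, among them Adipoq, which encodes adiponectin (-2.39), and Cidec, of the lipid droplet (-2.01). The 17 listed genes summed to 240.0 to 396.6 CPM in CD11c+ HFD, 137.8 to 343.8 CPM in CD11c+ SD, 219.8 to 517.5 CPM in CD206+ HFD and 394.5 to 744.9 CPM in CD206+ SD libraries, and these sums include Fabp4, which macrophages also express. Adipoq averaged 1.10, 0.967, 1.72 and 9.06 CPM in those groups. The part of adipocyte RNA in the fall of Car3 and the like was not tested.

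Some genes moved the same way in both populations by different amounts. The lipid-associated state was of this kind: of 28 tested genes 21 rose in CD11c+ and 24 in CD206+ cells, against 23% and 14.4% of all genes tested. In the interaction 10 were higher and 12 lower (21.1% and 23.2% of all genes tested), with a median of -0.07. Gpnmb, a glycoprotein of lipid-laden macrophages, measured 2256, 2125, 1783 and 3114 CPM in CD11c+ HFD libraries, against 50.01, 97.2, 166 and 144 CPM in CD11c+ SD libraries. The levels in CD206+ cells were 349.9, 934, 535 and 750.2 CPM on HFD, against 6.29, 3.88, 4.10 and 5.25 CPM on SD. Its fold was larger in CD206+ cells (7.04 ± 0.45, against 4.34 ± 0.38 in CD11c+ cells; interaction -2.52 ± 0.53, edgeR adjusted p = 0.00641), although its level stayed lower there. The same held for Spp1 (5.28 against 3.28) and the elastase Mmp12 (5.27 ± 0.56 against 1.76 ± 0.46). Trem2, the receptor of the lipid-associated state, and Hpgds, the prostaglandin D synthase, rose more in CD11c+ cells (3.42 and 4.38 ± 0.23, against 2.1 and 1.44 ± 0.20 in CD206+ cells).

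Genes of MHC class II presentation fell in both populations, further in CD11c+ cells. Of 18 tested, 12 fell in each population. In CD11c+ cells 12 had a lower and 2 a higher response, against 23.2% and 21.1% of all genes tested. Of 17 MHC class I genes, 8 fell in CD11c+ and 2 in CD206+ cells, where 25.2% and 13.7% of all genes tested fell. H2-DMb2, which helps load peptides, measured 3.76, 8.94, 8.65 and 5.87 CPM in CD11c+ HFD libraries, against 142, 108, 129 and 199.7 CPM in CD11c+ SD libraries. Its values were 1.35, 2.20, 2.91 and 2.08 CPM in CD206+ HFD libraries, against 10.6, 6.96, 6.6 and 5.75 CPM in CD206+ SD libraries (changes -4.40 ± 0.28 and -1.82 ± 0.31, edgeR adjusted p = 4.27e-09 and 4.34e-04). H2-DMa, its partner, the dendritic cell factor Batf3 and the monocyte receptor Ccr2 behaved alike (interactions -1.26 ± 0.18, -1.25 ± 0.12 and -1.35 ± 0.10). Mmp9, a gelatinase, and the desaturase Scd1 fell in both, further in CD206+ cells (-4.19 ± 0.40 and -3.00 ± 0.23, against -1.77 ± 0.41 and -0.77 ± 0.23 in CD11c+ cells). The fall of Scd1 in CD11c+ cells missed the threshold with all 32 libraries in the fit (adjusted p = 0.2) and without replicate 4 of CD11c+ SD (0.0565).

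**Figure D5:**
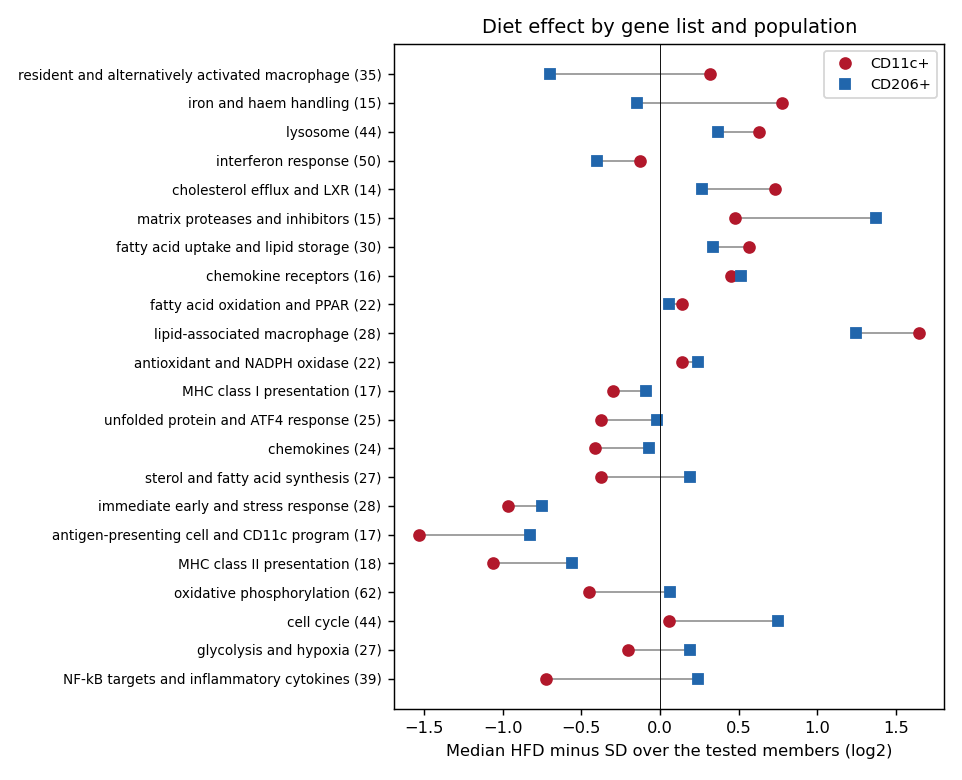
Median log2 change with HFD against SD over the tested members of each gene list (number in brackets), in CD11c+ cells (circles) and CD206+ cells (squares), ordered by the median interaction with the highest on top. Resident macrophage genes lie at 0.32 in CD11c+ and -0.70 in CD206+ cells and NF-kB targets at -0.73 and 0.24, while lipid-associated genes lie above 1 in both (1.648 and 1.245).

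The same interaction was then computed in the KO mice. Tnfaip3, the deleted gene, lay between 486 and 1647 CPM in WT libraries, against 167 to 474.5 CPM in KO libraries (scaled over all 32 libraries). In a fit of all 32 libraries (13453 genes) it passed for 5186 genes in WT pairs (38.5%) and for 0 in KO pairs (edgeR; 679 at an unadjusted p under 0.05). In the 16 KO libraries alone it passed for 0 genes by edgeR, 1 by DESeq2 and 0 by voom with a random pair effect (494, 463 and 473 at an unadjusted p under 0.05). There the diet itself changed 1, 43 and 1 genes in CD11c+ and 0, 14 and 0 in CD206+ cells by the 3 tools. The WT minus KO difference of the interactions, which tests the contrast directly, passed for 2077 genes (15.4%, with 1057 higher and 1020 lower). It rests in part on the WT SD libraries that stood apart on the third component, and their part in it was not tested.

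The genes below were chosen for their interaction in WT pairs, which is part of the WT minus KO difference, so their values describe that difference and are no test of it. Folr2 had an interaction of 4.64 in WT and 0.76 ± 0.39 in KO pairs (difference 3.89 ± 0.55). Id2 had -2.20 in WT and -0.08 ± 0.16 in KO pairs (difference -2.12 ± 0.23), and Msr1 had 2.57 and -0.03 ± 0.16 (difference 2.60 ± 0.23). Itgax had -2.76 in WT and 0.09 ± 0.50 in KO pairs (difference -2.85 ± 0.68). Dcstamp (-2.42 in WT and -1.61 ± 0.43 in KO pairs) and Klhl13 (2.51 and 1.24 ± 0.60) lay closer together. The median distance between paired populations was 0.280 ± 0.013 in WT HFD and 0.599 ± 0.052 in WT SD pairs in this fit, and 0.423 ± 0.055 in KO HFD and 0.456 ± 0.056 in KO SD pairs (exact 2-sided permutation p = 0.457, 4 against 4).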

How the data were processed

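Bulk RNA-seq of 16 WT libraries was analysed (4 per group), with 16 KO libraries in 1 comparison. The deposited files hold raw read counts per gene. The tools named, per the submitters' processing notes, are TopHat2 2.1.0, SAMtools 0.1.18, Trimmomatic 0.35 and FastQC 0.11.4, and the build is mm10 (GRCm38). Neither the counter nor its strand setting is given in the sources used here, so overlapping and antisense genes cannot be separated. Of 24421 genes, 13047 passed edgeR's filter (minimum count 10). The 5 unassigned entries were left out of library sizes, and reads in no feature made up 5.96 to 11.1%. CPM used TMM factors (0.85 to 1.08).

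The interaction was fitted with edgeR 4.0.16 (R 4.3.3, quasi-likelihood) with a term per pair, and each diet contrast on group means. Same-numbered libraries were set as pairs in the design of the comparison. The labels do not state whether they share a mouse. The deviations of same-numbered libraries correlated in all 8 pairs (r 0.156 to 0.494, each highest with its own number). Where a library was left out, its partner no longer informed the paired interaction. Alternatives were DESeq2 1.42.0, voom (limma 3.58.1), other scaling, no filter, no pair term, all 32 libraries and each replicate left out. Replicates differed by more than sampling noise (chi-square per degree of freedom 8.94 to 53.1). On simulated data with a known interaction (12920 genes, 150 changes of each fold over 3 draws), 4.0% of 1.25-fold, 42.0% of 1.5-fold, 67.3% of 2-fold and 83.3% of 4-fold changes were recovered. Far fewer genes changed there than the 44.3% called in the data. The adjusted threshold was thus stricter, and these rates need not hold for the data.

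Named genes were those with the largest interaction per class and list, at 10 CPM or more in a group and with diets not overlapping. Some genes picked by this rule are not described. The genes and lists were chosen with earlier results of these data known. Of 809 listed symbols, 4 were not found. Promoters come from RefSeq.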

Additional observations from a re-analysis of the deposited data

Results flagged for a closer look

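The responses of the populations to diet differed for 5778 genes in WT mice, and the WT minus KO difference of that interaction passed for 2077 genes.

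Single libraries stood apart from the other 3 of their group in 22 of 296 groups checked (74 genes), where chance alone gives about 1 in 20. In CD206+ HFD replicate 1, Hpgd (333 CPM, others 266 to 275), Id2 (129, others 91.5 to 96.8), Rasgrp3 (102, others 56.1 to 63.1) and Prune2 (97.7, others 83.6 to 86.0) were high. In CD11c+ HFD replicate 1, Dusp5 (162 CPM, others 114 to 118), Hpgds (211, others 146 to 153) and Scd1 (19.6, others 9.12 to 10.3) were high. In replicate 3 of both HFD groups Uqcrfs1 was low, at 90.2 CPM in CD11c+ HFD and 71.1 CPM in CD206+ HFD. Arhgef5 was high in CD206+ HFD replicate 2 (5.73 CPM, others 2.96 to 3.33) and Klra2 in CD206+ HFD replicate 3 (4.09, others 1.83 to 2.18).

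Among CD11c+ SD libraries, Rnase4 (32.2 CPM, others 10.6 to 12.1) and Car3 (23.7, others 12.4 to 14.3) were high in replicate 2 and Ndufa6 in replicate 1 (134, others 95.4 to 100.2). Mrc1 was low in replicate 3 (412 CPM, others 481 to 486), and Klra2 (17.2, others 29.3 to 31.6) and Gyk (16.5, others 22.2 to 23) were low in replicate 4. Among CD206+ SD libraries, Nr4a3 (24.3 CPM, others 15.1 to 16.3) and Adam8 (54.5, others 28.9 to 32.9) were high in replicate 1. Vsig4 (31.6 CPM, others 13.8 to 16) and Mmp9 (680 CPM, others 263 to 300.2) were high in replicate 4, and Apoe was low in replicate 3 (7511).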

How the results depend on the processing

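The 6 counts (interaction, each diet contrast, opposite, CD11c+-specific and CD206+-specific genes) stayed within 1.5 times their values under every alternative run. Without the replicate block, 4437 genes passed the interaction, of which 4406 were among the 5778 of the paired fit with the same sign. Opposite genes then numbered 429, CD11c+-specific genes 2530 and CD206+-specific genes 694. The interaction passed for 5793 genes with RLE scaling, 5528 with no filter, 5399 in DESeq2, 5863 in voom and 5186 with all 32 libraries. Leaving out 1 library at a time gave 4882 to 5867 interaction genes, 5742 to 6449 and 2978 to 4447 diet genes in CD11c+ and CD206+ cells, 318 to 592 opposite, 2543 to 3054 CD11c+-specific and 623 to 1039 CD206+-specific genes. No direction reversed among the recomputed interactions of 204 genes. The same held for the diet changes of 122 genes where they were called in the main run, and those not called were not checked for it. Calls lost or gained by described genes are given beside them where a result rests on them, with the cause not tested. At 4 libraries a group, the smallest simulated folds were rarely recovered (4.0%), so genes not called may still differ.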

Other observations

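Of 50 interferon response genes tested, 21 had a higher and 13 a lower response in CD11c+ cells (median interaction 0.30), against 21.1% higher and 23.2% lower of all genes tested, so the lower share is near that of all genes. The lower count was 8 without the replicate block, and 1 member was called in opposite directions. In CD11c+ cells 10 rose and 17 fell, and in CD206+ cells 1 rose and 15 fell. Genes of the antioxidant response and NADPH oxidase had 5 higher and 9 lower of 22, the higher share again near that of all genes, and 3 higher without either library of HFD pair 3 or 4 or SD pair 1 or without the replicate block. Of them 10 rose and 0 fell in CD206+ cells by edgeR. Genes of the unfolded protein and ATF4 response had 4 higher and 13 lower of 25, with 8 that fell in CD11c+ cells only.

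Some lists of other cells held genes called between the diets, and others held few. Of 14 endothelial genes 1 rose in CD11c+ and 1 fell in CD206+ cells, and of 9 mesothelial genes 0 passed in either. In the interaction 7 of the 14 endothelial genes were higher and 0 lower in CD11c+ cells (21.1% and 23.2% of all genes tested). That higher count was 5 to 14 with 1 library left out. The endothelial genes summed to 138.4 to 311.4 CPM in CD11c+ HFD and 121.5 to 273.2 CPM in CD11c+ SD libraries. In CD206+ libraries they summed to 180.9 to 587.1 CPM on HFD and 476.2 to 532.7 CPM on SD. The 8 mast cell and basophil genes summed to 10.9 to 40.1 CPM in CD11c+ HFD, 0.66 to 0.95 CPM in CD11c+ SD, 19.5 to 116.1 CPM in CD206+ HFD and 2.11 to 11.6 CPM in CD206+ SD libraries. Mcpt8 was at 0 in both HFD groups and in CD11c+ SD. The 18 stromal genes ranged more widely. In CD11c+ cells 10 rose and 1 fell (23% and 25.2% of all genes tested). In CD206+ cells 7 rose and 0 fell (14.4% and 13.7% of all genes tested). In the interaction 5 were higher and 1 lower (21.1% and 23.2% of all genes tested), and the higher count was 4 to 9 with 1 library left out. Sums of the stromal genes overlapped between diets. They summed to 327.6 to 1005.8 CPM in CD11c+ HFD, 153.6 to 421.7 CPM in CD11c+ SD, 695.1 to 2914.2 CPM in CD206+ HFD and 504.7 to 1300.8 CPM in CD206+ SD libraries. Their part in the results was not tested.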
